A study of Mus musculus with 8 samples.

Results

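Gene expression in mouse lung at 1 day after thoracic surgery was compared with that at 3 and 7 days, pooling pneumonectomy (PNY) and sham surgery (SHAM). In PNY the left lung was ligated at its hilum and resected through a thoracotomy, and SHAM was the same thoracotomy with no resection. Adult C57BL/6 females of 10 to 12 weeks, all anesthetized with ketamine and xylazine, ventilated, and given ampicillin and buprenorphine, were used in every group. Total RNA of perfused lung tissue, pooled from 8 mice per group, had been run on 1 Affymetrix whole-genome mouse array per surgery and time point. In PNY this was the lung tissue that remained after the resection. The comparison thus holds 6 of the 8 arrays in the series, 2 at 1 day against 4 at 3 and 7 days. All levels below are log2 values of single arrays. The remaining 2 arrays, of 6 hours, are given beside the results and had no part in the tests. Unoperated mice were not analysed here, so anesthesia, thoracotomy and drugs are common to every array, and the pools hide the spread between mice. A gene was counted as changed the same way in both surgeries when the 1 day value differed from the mean of 3 and 7 days by at least 1.5-fold in 1 direction within PNY and within SHAM, and the 1 day array lay outside both later arrays of its own surgery. By this rule 109 of 18193 genes were changed, 37 of them higher at 1 day (0.203% of all genes) and 72 lower (0.396%).

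After thoracotomy and anesthesia, stress hormones, tissue injury and interrupted feeding act on the lung within hours, and recruitment of leukocytes by chemokines follows. The remaining lung of a rodent grows after pneumonectomy, with cells entering mitosis over the following days. Whole lung also follows a daily clock, in which the activators Clock and Arntl drive the genes of their own repressors, among them the Per genes and Nr1d1.

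The genes lower at 1 day were led by the chemokine genes Cxcl3 and Cxcl5, the monooxygenase gene Cyp1a1, Slurp1, Prg4 and Slc26a4, and they included 7 mitotic genes. Those higher at 1 day included clock output genes, genes induced by glucocorticoids, Saa1 and the nuclear RNA Malat1. With 2 arrays against 4, limma passed 1 probe set of 45037 (0.00222%), a probe set of Saa1 (limma, adjusted p = 0.0114), a call that was lost when either 7 day array was left out. No probe set was lower at 1 day at that threshold, although 7378 probe sets (16.4%) had an unadjusted p under 0.05, 3530 of them higher and 3848 lower. For single genes an exact permutation test over the 15 splits of 6 arrays into 2 and 4 cannot go below p = 0.0667. The values below are therefore a description wherever no adjusted p under 0.05 is given. In whole lung, fewer cells of a type and less RNA per cell cannot be told apart.

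**Figure D1:**
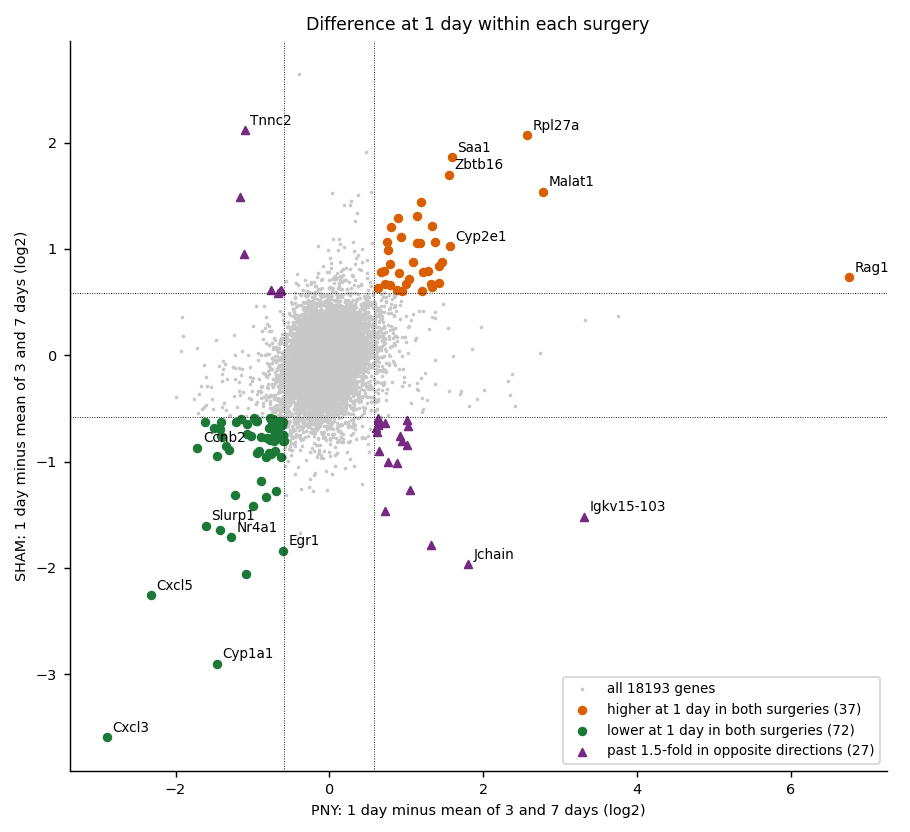
Each point is 1 gene, with the difference of the 1 day array from the mean of 3 and 7 days within PNY on the x axis and within SHAM on the y axis, both in log2; dotted lines mark 1.5-fold. The 37 genes in the upper right and the 72 in the lower left changed the same way in both surgeries, with Cxcl3 furthest out at -2.89 in PNY and -3.59 in SHAM, and 27 genes went past 1.5-fold in opposite directions.

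Within PNY 300 genes were at least 1.5-fold higher at 1 day (1.65%) and 366 lower (2.01%), and within SHAM 162 were higher (0.89%) and 396 lower (2.18%). The 37 genes higher in both make up 12.3% of the 300 genes that met the rule within PNY and 23.1% of the 160 that met it within SHAM. The 72 lower in both make up 19.8% of 364 and 18.2% of 395. Most genes counted within 1 surgery thus did not meet the rule in both. Each share was still above that of all genes past the fold within a surgery (0.89% to 2.18%). With 1 array at 1 day per surgery and no test, a gene counted in 1 surgery only is not shown to differ between them. Of the 37 genes, 19 were also past 1.5-fold against each later array of their surgery taken singly, and of the 72 genes 27 were.

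Before the genes are described, 1 feature of the arrays has to be set beside them. The hybridization spikes, bacterial and phage transcripts added in fixed amounts to each hybridization and left out of every comparison, averaged 11.35 and 11.94 on the PNY and SHAM arrays of 1 day and 11.38 and 11.24 at 6 hours, against 10.55, 10.47, 10.02 and 10.26 on the 4 later arrays. The 18 spike probe sets were thus 1.32 log2 units higher at 1 day than later, and on each of the 18 both early time points lay above all later arrays. The 24 probe sets of polyadenylated RNA spikes did not divide this way (2 of 24 had both 1 day arrays above all later ones). They still averaged 0.46 log2 units higher at 1 day than later, highest in SHAM at 1 day (11.62) and lowest in PNY at 7 days (10.36). The difference of 3′ from 5′ probe sets, a sign of RNA quality, lay between 0.16 and 0.27 for Actb on all 8 arrays. For Gapdh it was -0.28 and -0.31 at 6 hours and between -0.21 and -0.14 on the other arrays. The part of the spike difference in the results was not tested, and time after surgery and whatever set the spike levels cannot be told apart in this design. Since the 6 hour arrays shared the high spike level, the 6 hour values are given for the main genes of each group. The 1 day array lay beyond the 6 hour array of its own surgery in both surgeries in 20 of the 37 higher genes and 40 of the 72 lower ones. It was past 1.5-fold from it in 8 and 12.

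The 2 largest differences among the 72 lower genes were those of chemokines. Of 28 measured chemokine genes, 5 were lower at 1 day in both surgeries and none higher, and the median of the list was -0.30 within PNY and -0.13 within SHAM, against -0.05 and -0.05 over all genes. Cxcl3, a ligand of the neutrophil receptor Cxcr2, was at 4.43 in PNY and 3.75 in SHAM at 1 day, at 6.99 and 6.73 at 3 days, and at 7.65 and 7.95 at 7 days. Every later array lay above both 1 day arrays by more than 2 log2 units, and at 6 hours the level was in between, at 5.28 and 6.24. The mean difference of -3.24 ± 0.34 (SE) had an adjusted p of 0.0589 by limma. The 1 day values lay near the lower quartile of all values on their arrays (4.05 and 4.07), so the size of the difference is uncertain. Against 7 days alone the difference of -3.71 ± 0.23 (SE) passed (limma, adjusted p = 0.0168).

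Cxcl5, another Cxcr2 ligand that lung epithelium makes, was at 5.03 and 4.69 at 1 day in PNY and SHAM, 6.49 and 5.99 at 3 days, and 8.19 and 7.90 at 7 days. Its level was about as low at 6 hours (5.17 and 5.37), and the increase went on from 3 to 7 days in both surgeries. It was the other of the 2 probe sets of 45037 (0.00444%) that passed against 7 days, at -3.19 ± 0.20 (SE, limma adjusted p = 0.0168), whereas no probe set passed against 3 days (0.0%; 5666 at an unadjusted p under 0.05 by limma). Cxcl2, also a ligand of that receptor, was at 5.18 and 5.70 at 1 day and between 6.11 and 6.99 on the later arrays, with no overlap. Its 6 hour values of 6.30 and 7.71 were past 1.5-fold above 1 day, so 1 day was the lowest of the 4 time points in both surgeries. Cxcl10, the interferon-induced T cell attractant, was lower by 0.94 within PNY and 0.92 within SHAM, and at 6 hours it was at 5.74 in PNY and 8.02 in SHAM, below and above 1 day (6.27 and 5.66). Ccl20 was lower by 0.64 and 0.75, with 6 hour levels of 6.57 and 6.73 near those of 1 day (6.89 and 6.48). None of 16 measured neutrophil genes met the rule, as few genes of any kind did (0.203% higher and 0.396% lower). Within PNY alone 5 of the 16 were at least 1.5-fold higher at 1 day (31.2%, against 1.65% of all genes), and within SHAM 0. The list medians were 0.38 within PNY and -0.15 within SHAM. S100a8, a calcium-binding protein of neutrophils, at 12.80 and 12.61 at 1 day, was at 11.78, 11.65, 10.85 and 12.61 later.

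The promoters of Cxcl2 and Cxcl3, which lie in 1 chemokine cluster, are shown because a κB site, here GGG, any 2 bases and then TTTCC on either strand, lies close to both starts. Among genes with a promoter in the RefSeq table (GRCm38.p6, 250 bases before to 50 after the start), 1.89% hold these letters, 5 of the 20 chemokine genes with an entry do, and 3 of the 4 changed ones with an entry do. Capitals mark the κB letters.
Cxcl2, chr5:90903649-90903948, forward strand: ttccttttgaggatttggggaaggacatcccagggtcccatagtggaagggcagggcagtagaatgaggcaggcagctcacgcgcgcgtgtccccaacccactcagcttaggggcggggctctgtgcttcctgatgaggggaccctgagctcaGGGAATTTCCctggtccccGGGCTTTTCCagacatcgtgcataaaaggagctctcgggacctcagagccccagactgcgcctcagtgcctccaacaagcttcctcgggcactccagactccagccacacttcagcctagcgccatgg
Cxcl3, chr5:90785851-90786150, forward strand: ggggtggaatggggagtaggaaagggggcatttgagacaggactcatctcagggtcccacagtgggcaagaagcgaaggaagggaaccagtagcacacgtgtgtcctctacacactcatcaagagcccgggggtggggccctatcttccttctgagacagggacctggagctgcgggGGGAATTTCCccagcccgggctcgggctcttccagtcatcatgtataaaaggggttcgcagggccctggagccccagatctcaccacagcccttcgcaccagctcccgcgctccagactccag
A match of letters is a description of the window and says nothing of a factor bound there.

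In xenobiotic metabolism 1 gene was lower and 1 higher at 1 day among 23 measured. Cyp1a1, the monooxygenase induced through the aryl hydrocarbon receptor, was at 6.63 in PNY and 5.86 in SHAM at 1 day, against 7.99, 8.69, 8.20 and 8.83 on the later arrays and 8.38 and 8.76 at 6 hours. Both 1 day arrays lay below all the others, so the level was low at 1 day only, by 2.18 ± 0.28 (SE) or 4.54-fold relative to 3 and 7 days (limma, adjusted p = 0.0685). Cyp2e1, which oxidizes ethanol and small solvents and is induced by fasting, was at 8.81 and 8.65 at 1 day and 8.97 and 8.94 at 6 hours, and between 7.17 and 7.63 later. The early arrays lay apart from the later ones by more than 1 log2 unit, with a difference at 1 day of 1.30 ± 0.15 (SE; limma, adjusted p = 0.0632).

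**Figure D2:**
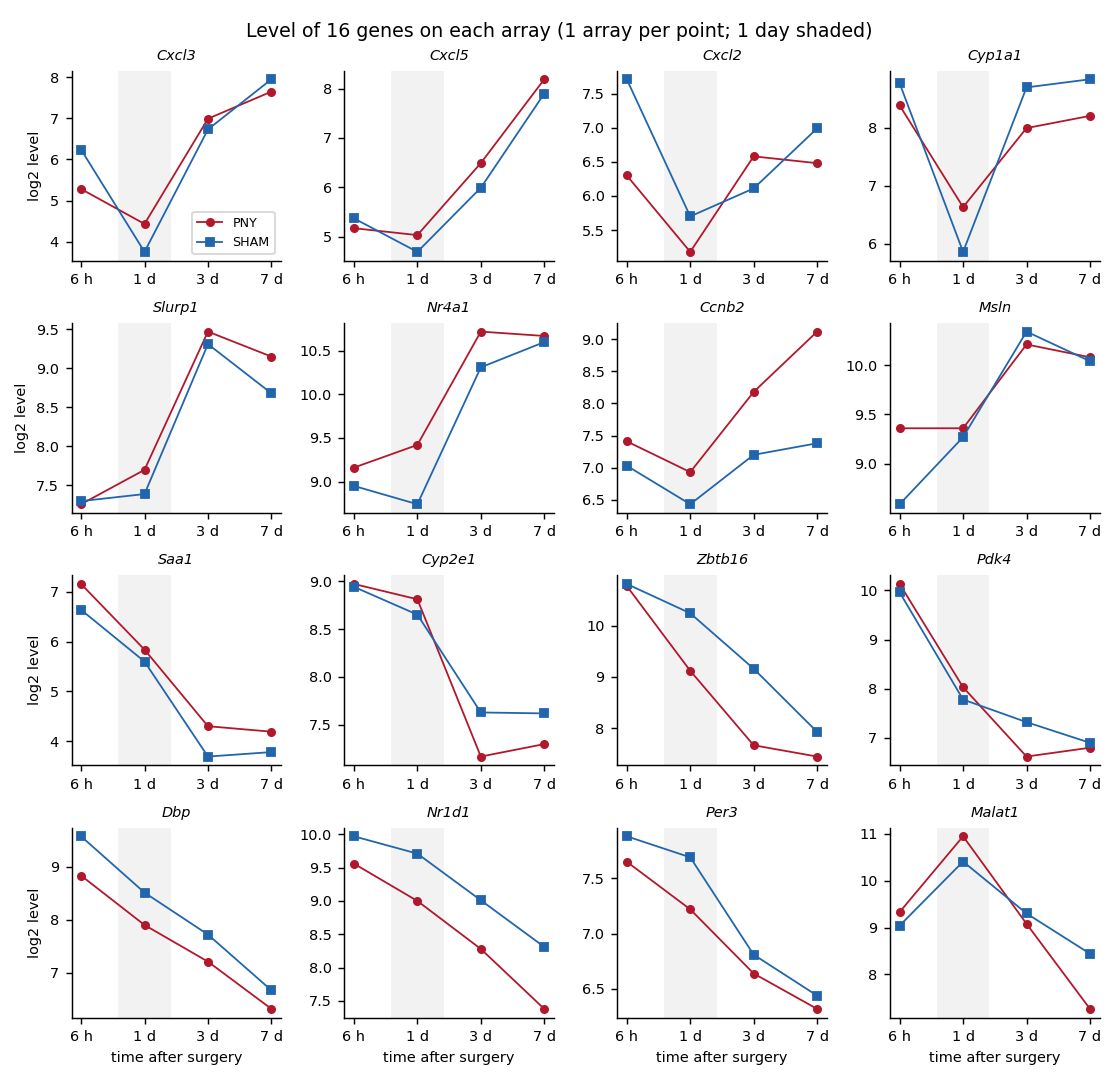
Level (log2) of 16 genes on each of the 8 arrays against time after surgery, PNY as circles and SHAM as squares, 1 array per point with no error; the 1 day arrays are shaded. Cxcl2, Cxcl3 and Cyp1a1 were lowest at 1 day in both surgeries, Saa1, Zbtb16, Pdk4, Dbp and Nr1d1 were highest at 6 hours in both, and Malat1 was highest at 1 day.

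Of 40 measured genes of the G2/M list, 7 met the rule in both surgeries (Ccnb2, Ttk, Cenpa, Kif20a, Aspm, Cep55 and Racgap1) and none was higher. Taken by surgery, 38 of 40 were at least 1.5-fold lower within PNY, and 7 within SHAM, with list medians of -1.37 and -0.29. Ccnb2, a cyclin that activates Cdk1 at mitotic entry, was at 6.93 at 1 day, 8.18 at 3 days and 9.12 at 7 days in PNY, and at 6.43, 7.20 and 7.38 in SHAM. The SHAM values went the same way as the PNY values over a smaller range, and both 1 day arrays lay below all 4 later ones and below 6 hours (7.41 and 7.03). Aspm, which organizes spindle poles, differed alike in the 2 surgeries, by 1.23 within PNY (6.22 against 6.90 and 8.00) and 1.31 within SHAM (4.62 against 5.60 and 6.25). The PNY array of 1 day lay above the SHAM array of 3 days, so for this gene the groups overlapped. Cep55, needed for the last cut between daughter cells, was lower by 1.61 within PNY and 0.63 within SHAM. Racgap1, a regulator of the cleavage furrow, was at 5.83 and 5.58 at 1 day and between 6.16 and 7.79 later. None of the 40 passed the test of a difference between the surgeries, which rests on 2 residual degrees of freedom. No S phase gene met the rule in both surgeries (0 of 33), as few genes of any kind did (0.203% higher and 0.396% lower). Within PNY 5 of the 33 were at least 1.5-fold lower (15.2%, against 2.01% of all genes), and within SHAM 0. The S phase medians were -0.29 within PNY and 0.10 within SHAM.

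Promoters of 4 of these genes are shown because mitotic genes are known to share a pair of elements near the start, the CCAAT box bound by NF-Y and the cell cycle homology region (TTTGAA) through which the DREAM complex represses them outside G2/M. Both were searched on either strand, and no match of one overlapped a match of the other in the windows shown. The CCAAT letters are in 41.1% of all promoters in the RefSeq table and the TTTGAA letters in 20.2%. Of 34 list members with an entry, 28 hold the first and 27 the second, and of the 6 changed members with an entry, 5 and 6 do. The CCAAT letters are not particular to this list, since 13 of 16 clock genes with an entry hold them, while 0 hold TTTGAA. Capitals mark both elements.
Ccnb2, chr9:70421505-70421804, reverse strand: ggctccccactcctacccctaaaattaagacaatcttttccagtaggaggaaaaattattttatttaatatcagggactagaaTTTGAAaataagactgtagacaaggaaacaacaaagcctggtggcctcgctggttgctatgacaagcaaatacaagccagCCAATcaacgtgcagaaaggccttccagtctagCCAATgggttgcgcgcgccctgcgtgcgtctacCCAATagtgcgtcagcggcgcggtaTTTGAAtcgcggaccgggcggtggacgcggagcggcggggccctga
Aspm, chr1:139454523-139454822, forward strand: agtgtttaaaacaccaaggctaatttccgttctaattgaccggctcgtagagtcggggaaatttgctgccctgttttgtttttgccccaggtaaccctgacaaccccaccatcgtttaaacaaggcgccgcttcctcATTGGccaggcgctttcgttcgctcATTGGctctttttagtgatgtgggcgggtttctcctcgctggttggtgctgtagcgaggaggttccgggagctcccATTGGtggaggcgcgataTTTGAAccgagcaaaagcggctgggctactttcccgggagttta
Cenpa, chr5:30666636-30666935, forward strand: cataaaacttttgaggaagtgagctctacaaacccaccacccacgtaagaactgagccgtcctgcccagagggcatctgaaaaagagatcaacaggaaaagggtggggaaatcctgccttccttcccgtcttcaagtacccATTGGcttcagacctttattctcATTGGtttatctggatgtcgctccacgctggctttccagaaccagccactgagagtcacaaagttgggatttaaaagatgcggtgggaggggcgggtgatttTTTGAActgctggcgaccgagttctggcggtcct
Racgap1, chr15:99651607-99651906, reverse strand: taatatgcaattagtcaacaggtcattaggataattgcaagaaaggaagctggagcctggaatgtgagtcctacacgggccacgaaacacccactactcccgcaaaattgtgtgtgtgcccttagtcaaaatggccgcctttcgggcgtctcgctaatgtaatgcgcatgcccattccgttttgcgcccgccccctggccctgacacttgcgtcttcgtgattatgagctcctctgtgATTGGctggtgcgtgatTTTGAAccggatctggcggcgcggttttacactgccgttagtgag
Ccnb2 holds 3 CCAAT and 2 TTTGAA matches, and Racgap1 1 of each.

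Immediate early genes, transcription factors induced within minutes of a stimulus, gave 2 of 24 members lower in both surgeries. Nr4a1, an orphan nuclear receptor, was at 9.42 and 8.74 at 1 day, and between 10.31 and 10.72 on the 4 later arrays, a difference of -1.49 ± 0.19 (SE; limma, adjusted p = 0.0685). At 6 hours it stood near the 1 day level, at 9.16 and 8.95. Egr1 was at 9.78 and 8.68 at 1 day, against 10.48, 10.37, 10.28 and 10.67 later and 9.35 and 9.68 at 6 hours, and its difference was larger within SHAM (-1.84) than within PNY (-0.60), with an interaction that did not pass (limma, adjusted p = 0.460). The matricellular gene Ccn1 was at 9.78 and 8.89 at 1 day, between 10.17 and 10.88 later, and at 9.76 and 9.01 at 6 hours by its brightest probe set. The next brightest differed likewise (-0.85 within PNY and -1.24 within SHAM), whereas 2 dim ones were higher at 1 day within PNY, by 1.19 and 1.02, and lower within SHAM, by 0.23 and 0.59. Thbs1, which encodes thrombospondin 1, differed by -0.67 within PNY and -0.63 within SHAM.

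Of 13 mesothelial genes, 2 were lower at 1 day in both surgeries and none higher, and the medians of the list were -0.09 within PNY and -0.21 within SHAM. Msln, the mesothelial surface protein mesothelin, was at 9.36 and 9.27 at 1 day, between 10.04 and 10.34 later, and at 9.36 and 8.59 at 6 hours. Muc16, another mesothelial surface protein, was at 6.30 and 6.50 at 1 day, between 6.85 and 7.59 later, and lower still at 6 hours (5.77 and 5.15). The serosal marker Upk3b had the same order in PNY (10.49, 11.20 and 10.68 at 1, 3 and 7 days) and SHAM (10.40, 11.48 and 11.02) without reaching 1.5-fold within PNY. The amount of pleural surface dissected with each lung was not measured here. Some of the larger differences belonged to genes outside that list. Prg4, the lubricant of serosal surfaces, was at 6.17 and 6.55 at 1 day and at 7.96, 8.29, 6.54 and 8.93 later, and its 7 day PNY array fell within the 1 day range. Slurp1, a secreted epithelial protein, stood at 7.70 and 7.39 at 1 day, close to 7.26 and 7.30 at 6 hours, and between 8.68 and 9.47 later, 3.04-fold higher (limma, adjusted p = 0.0685). Pigr, the carrier of polymeric immunoglobulin across epithelium, was at 8.97 and 9.02 at 1 day and between 9.66 and 9.92 later. The anion exchanger Slc26a4 was lower by 1.43 within PNY and 1.64 within SHAM.

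Among macrophage genes, 2 of 18 members of the alveolar macrophage list were lower at 1 day. Marco, a scavenger receptor, was at 7.95 and 7.84 at 1 day, between 8.62 and 8.84 later, and at 8.11 and 7.63 at 6 hours. Ctsk, a lysosomal cysteine protease, was at 8.37 and 8.35, below 9.24 to 9.78 on the later arrays and below both 6 hour arrays (8.85 and 8.64). Mmp12, macrophage elastase, was at 5.95 and 5.64 at 1 day against 7.73, 6.49, 7.09 and 6.68, and Clec4n, the fungal receptor Dectin-2, was at 8.55 and 8.41 against a later range of 9.18 to 9.21. Levels of the other macrophage markers Siglecf and Chil3, named after their values were seen, differed by at most 0.33 within a surgery. Taken by surgery, 4 of the 18 list members were at least 1.5-fold lower within PNY (22.2%, against 2.01% of all genes) and 1 higher. Within SHAM 2 were lower (11.1%, against 2.18%) and 0 higher. The list as a whole had medians of -0.20 within PNY and -0.05 within SHAM.

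Acute phase and mucosal defence genes leaned lower at 1 day, with Saa1 the only member higher in both surgeries. Of 19 measured, 15 lay below 0 within each surgery, with medians of -0.27 within PNY and -0.35 within SHAM (-0.05 and -0.05 over all genes). Within PNY 6 were at least 1.5-fold lower (31.6%, against 2.01% of all genes) and 1 higher, and within SHAM 5 lower (26.3%, against 2.18%) and 3 higher. Saa1, serum amyloid A, was measured by 2 probe sets, and the dimmer of them gave the single limma call: 6.14 and 6.23 at 1 day, 6.90 and 6.74 at 6 hours, and 3.15, 3.85, 3.41 and 3.59 on the later arrays, a difference of 2.69 ± 0.18 (SE). The brighter probe set was at 5.84 and 5.60 at 1 day and between 3.69 and 4.30 later (1.73 ± 0.19 SE; limma, adjusted p = 0.0589). Both put the early arrays above all later ones, although the later values lie near the bottom of the scale. By contrast, 3 other secreted defence genes of the 19 were lower at 1 day. Lcn2, which binds bacterial siderophores, was at 11.79 and 11.26 against 12.14 to 12.53 later. Itih4 was at 8.92 and 8.95 against 9.57 to 10.22. Lrg1 was at 11.13 and 10.63 against 11.36 to 11.78, and was higher again at 6 hours (11.83 and 11.72). Serpina3n, a serine protease inhibitor of the acute phase that lay outside the list, was at 10.80 and 10.56 at 1 day, 11.46 and 11.12 at 6 hours, and 9.20 to 10.02 later. In the IL-6 group of 16 genes, Il6 was lower at 1 day (4.27 and 3.92 against 4.27 to 5.73, with PNY at 1 day equal to SHAM at 3 days, and with 5.09 and 7.91 at 6 hours), Lif was lower by 0.65 in both surgeries, and the receptor gene Il6ra was higher (7.98 and 8.11 against 6.12 to 7.47, and 8.34 and 8.35 at 6 hours).

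Of 18 measured clock genes, 4 were higher at 1 day in both (Dbp, Nr1d1, Nr1d2 and Per3) and none was lower, with list medians of 0.14 within PNY and 0.36 within SHAM. Dbp, a transcription factor at the output of the clock, was at 8.83 and 9.57 at 6 hours, 7.90 and 8.51 at 1 day, 7.21 and 7.72 at 3 days, and 6.32 and 6.67 at 7 days in PNY and SHAM. It was lower at each time than at the one before in both surgeries, and SHAM was above PNY at all 4 times. Nr1d1, a nuclear receptor that represses Arntl, went from 9.56 and 9.97 at 6 hours to 7.38 and 8.31 at 7 days, and in SHAM it was at 9.71 at 1 day and 9.01 at 3 days. The 3 day SHAM array was level with the 1 day PNY array. Nr1d2, its close relative, went from 11.15 and 11.47 at 6 hours to 8.83 and 9.49 at 7 days. Per3 was at 7.22 and 7.69 at 1 day and between 6.32 and 6.81 later. None passed limma (adjusted p from 0.123 to 0.233). In 16 of the 37 higher genes, these 4 among them, the 6 hour level was further out than the 1 day level in both surgeries. Arntl, the activator whose RNA runs opposite to these, was named after its values were seen and was at 7.78 and 7.59 at 1 day and 8.09 to 8.50 later. The hour of day at which lungs were taken was not given in the sources used here. Cry1, Clock and Bhlhe40 differed by at most 0.40 within a surgery.

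Of 22 listed genes induced by glucocorticoids, 4 were higher at 1 day in both surgeries (Zbtb16, Pdk4, Angptl4 and Fam107a) and Lcn2 was lower, with medians of 0.26 within PNY and 0.37 within SHAM. Zbtb16, the zinc finger gene PLZF, stood at 10.77 and 10.81 at 6 hours, 9.12 and 10.24 at 1 day, 7.67 and 9.16 at 3 days, and 7.45 and 7.93 at 7 days. The 3 day SHAM array lay above the 1 day PNY array. Pdk4, which holds back glucose oxidation in fasting, was at 10.13 and 9.96, 8.03 and 7.78, 6.62 and 7.32, and 6.80 and 6.90. Fam107a had its main change before 1 day, from 10.58 in both surgeries at 6 hours to 8.32 and 8.65, and was at 7.41 to 7.91 later. Angptl4, an inhibitor of lipoprotein lipase, was at 10.88 and 10.77 at 6 hours, 9.53 and 9.40 at 1 day, and 8.53 to 8.85 later, with no overlap (limma, adjusted p = 0.0843). All 4 were thus higher at 6 hours than at 1 day in both surgeries. Acaa1b, a peroxisomal thiolase, was at 7.67 and 7.91 at 1 day, 8.18 and 8.30 at 6 hours, and 6.16 to 7.13 later. Sdc4, a heparan sulfate proteoglycan, was at 10.85 and 10.62 at 1 day, near its 6 hour levels, and 8.88 to 10.09 later.

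Sterol and lipid synthesis gave 3 lower genes of 24 measured. Msmo1 was at 8.25 and 7.98 at 1 day and 8.76 to 8.91 later, and Cyp51 was at 8.01 and 7.75 against 8.27 to 8.67, both enzymes of sterol demethylation. The fatty acid elongase Elovl6 was at 6.30 and 6.21, against 6.59 to 7.06 later and 7.47 and 7.04 at 6 hours. No member was higher in both surgeries, and the medians were -0.19 within PNY and -0.33 within SHAM. Gadd45g, a stress gene, had a small and even difference: it was at 7.80 and 7.55 at 1 day, 8.45 to 8.57 on all later arrays, and 9.68 and 9.56 at 6 hours (-0.84 ± 0.10 SE; limma, adjusted p = 0.0685). Of the genes with the smallest p among those higher at 1 day, Stxbp5l was at 7.55 and 7.76 against 6.58 to 6.99, with its 2 dimmer probe sets at a difference of -0.03 each, and the imprinted gene Peg3 was at 7.94 and 7.77 against 7.13 to 7.29, short of 1.5-fold within SHAM.

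**Figure D3:**
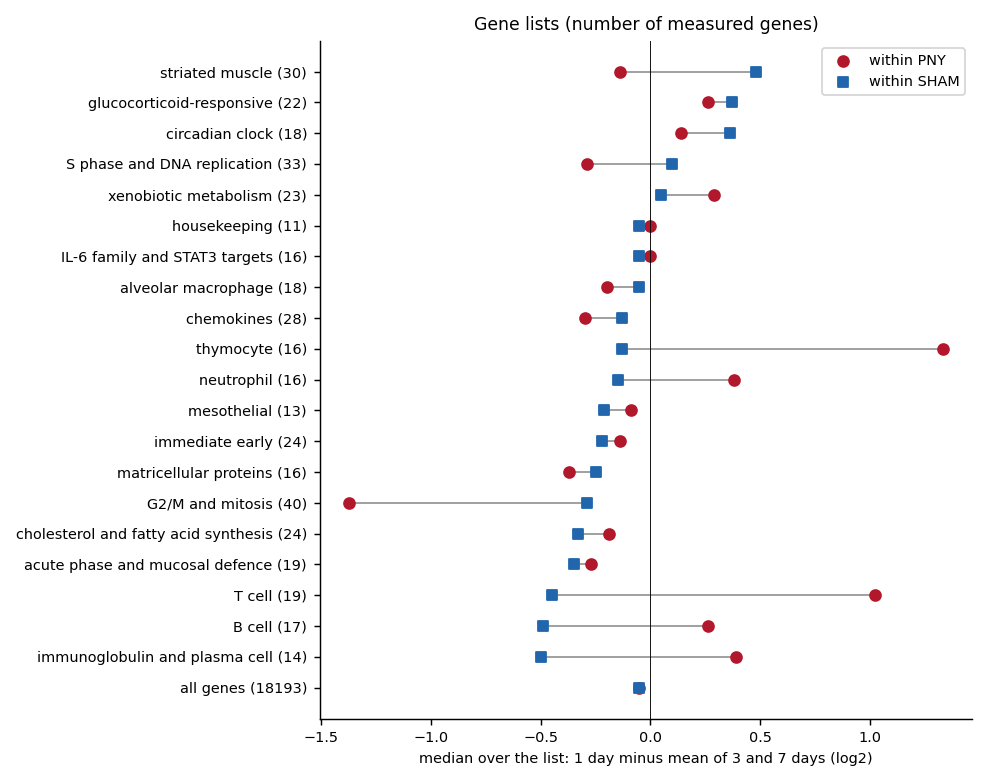
Median over the measured genes of each list of the 1 day difference from the mean of 3 and 7 days (log2, x axis), within PNY (circles) and within SHAM (squares); the number of measured genes is in brackets and no error is drawn. The G2/M list was at -1.37 in PNY and -0.29 in SHAM, glucocorticoid and clock lists were above 0 in both, and thymocyte, T cell, B cell and immunoglobulin lists were above 0 in PNY and below 0 in SHAM.

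Of the 56 lists, 12 had 2 or more members changed the same way and 34 had none. Among the latter were club cell (0 of 18), alveolar type I (0 of 16), type II and surfactant (0 of 19), fibroblast (0 of 20) and mitochondrial respiratory chain genes (0 of 17). Only 0.203% of all genes were higher and 0.396% lower by the rule, so 0 in such short lists does not set them apart. Small differences were there: 16 of 19 type II genes and 17 of 20 fibroblast genes lay below 0 within each surgery. Most genes of any kind did so too, 10700 of 18193 within PNY and 11102 within SHAM. Of the type II genes, 3 were at least 1.5-fold lower within PNY (15.8%, against 2.01% of all genes). The defining lung markers were level. Sftpc, the surfactant protein of type II cells, was between 14.65 and 14.69 on all 8 arrays, and Scgb1a1, the secretoglobin of club cells, between 14.71 and 14.82, both near the top of the scale where differences are compressed.

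Genes of other tissues stood high on single arrays. Rag1, the recombinase of developing lymphocytes, met the rule in both surgeries with very unequal differences. It was at 9.60 in PNY at 1 day and at 3.62 in SHAM at 1 day, against 2.56 to 3.21 on the later arrays, and it is not named with the genes above because its mean level lies below the median of all probe sets. Dntt, of the same cells, was at 8.25 in PNY and 5.42 in SHAM at 1 day, and between 4.79 and 5.17 later. The chemokine receptor Ccr9 was at 8.86 and 5.66, against 4.87 to 5.53, and Ptcra at 5.55 and 4.47, against 4.69 to 4.86. Of 16 thymocyte genes 11 were past 1.5-fold higher within PNY (68.8%, against 1.65% of all genes) and 1 within SHAM (6.25%, against 0.89%). The interaction of surgery and time passed for 14 probe sets (0.0311%), 10 higher at 1 day in PNY and 4 in SHAM. Those with a gene name were Rag1, Ccr9, Prss16, Sh2d1a and 2 probe sets each of Dntt and Tbata, all high only on the PNY array of 1 day, with differences between the surgeries from 2.71 to 6.03. The part of such cells in the counts within PNY was not tested.

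A group of 27 genes (0.148%) went past 1.5-fold in opposite directions, 20 of them higher in PNY and lower in SHAM. Most of the 20 were immunoglobulin and lymphocyte genes. Jchain, which encodes the chain that joins polymeric immunoglobulin, was at 9.55 in PNY and 7.33 in SHAM at 1 day, 7.40 and 8.91 at 3 days, and 8.09 and 9.68 at 7 days. Ighm, the IgM heavy chain, was at 11.11 and 10.05, 9.59 and 11.43, and 9.98 and 12.23. In both genes SHAM was higher at 3 and 7 days than at 1 day while PNY was lower, and neither interaction passed (limma, adjusted p = 0.195 and 0.227). A kappa light chain variable gene was at 8.67 in PNY at 1 day and 8.58 in SHAM at 7 days, and at 5.21 to 6.03 on the other 4 arrays compared. Immunoglobulin variable genes share sequence, so their probe sets can take up each other's transcripts. Muscle genes gave the reverse. Tnnc2, a fast muscle troponin, was at 6.53 in SHAM at 1 day and 7.28 in PNY at 7 days, and at 4.23 to 4.82 elsewhere, and Acta1, skeletal muscle actin, was at 7.47 and 8.17 on the same arrays and 5.90 to 6.00 on the other 4 arrays compared. Of 30 muscle genes, 10 were past 1.5-fold higher within SHAM (33.3%, against 0.89% of all genes) and 5 lower within PNY (16.7%, against 2.01%). None met the rule, as few genes of any kind did. The erythroid gene Alas2 was at 8.62 and 8.81 at 1 day and 7.35, 8.41, 7.30 and 8.70 later, with overlap.

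**Figure D4:**
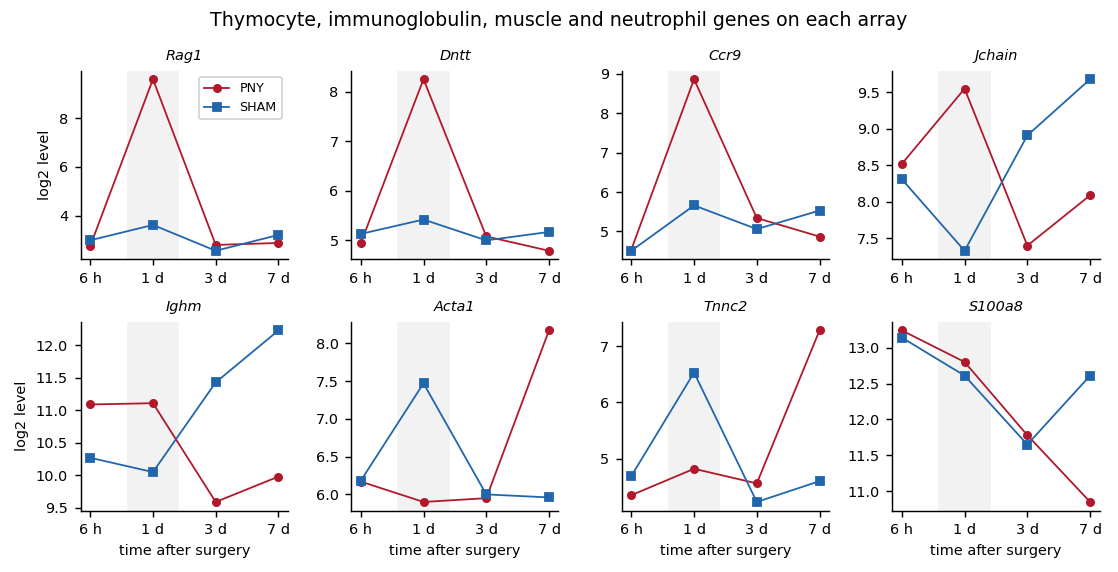
Level (log2) of 8 genes on each array against time after surgery, PNY as circles and SHAM as squares, 1 array per point with no error; the 1 day arrays are shaded. Rag1, Dntt and Ccr9 were high only in PNY at 1 day, Jchain and Ighm ran in opposite directions in the 2 surgeries, and Acta1 and Tnnc2 were high in SHAM at 1 day and PNY at 7 days.

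After Rag1, the 2 genes with the largest difference among those higher at 1 day were Rpl27a and Malat1, which need their other probe sets beside them. Malat1, a long noncoding RNA kept in the nucleus, had 7 probe sets, all of them higher at 1 day in both surgeries, by 0.88 to 2.55. Its brightest was at 10.95 and 10.41 at 1 day, 9.33 and 9.04 at 6 hours, and 9.08, 9.30, 7.26 and 8.44 later. The ribosomal protein gene Rpl27a was at 10.08 on both 1 day arrays, 9.01 and 8.91 at 6 hours and 6.59 to 8.53 later by its brightest probe set, whereas its other probe set, near the bottom of the scale, differed by 0.11. Rpf2, of ribosome biogenesis, was at 8.45 and 8.83 against 7.89 and 7.97 at 6 hours and 6.95 to 7.57 later by 1 probe set, and its 3 others differed by -0.11 to -0.05. The kinase gene Map3k12 was at 8.26 and 8.72 at 1 day, against 7.64 and 7.94 at 6 hours and 6.41 to 7.59 later by its brightest probe set, and its 3 others differed by 0.03, 0.37 and -0.27. Sdc4, described above, differed by 0.58 within PNY and 0.14 within SHAM by another probe set. Angptl4, Aspm, Cyp51, Elovl6, Lif, Msmo1, Peg3, Per3 and Racgap1 each had 1 or more dimmer probe sets that differed by no more than 0.35 either way.

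The genes named by the rule make up 19 of the 37 higher and 32 of the 72 lower ones. The 18 others that were higher, except Rag1, differed on average by 0.63 to 1.17, and the 40 others that were lower by 0.62 to 1.09. Several of them, named after their values were seen, belong to the groups above. The mitotic genes Nek2, Cdca5 and Sgo2a, which are in no list used here, were lower by 1.09, 0.89 and 0.86. Csf2rb, the shared receptor chain for GM-CSF, IL-3 and IL-5, was at 8.53 and 8.73 at 1 day, 9.19 to 9.49 later, and 9.37 and 9.43 at 6 hours. Tnfsf10, the death ligand TRAIL, was at 9.36 and 9.27 at 1 day, above 8.37 and 8.62 at 6 hours and below 9.79 to 10.16 later, so in both surgeries it was higher at each time than at the one before. Rgcc, a complement-induced cell cycle regulator, ran the other way, from 12.64 and 12.67 at 6 hours through 11.36 and 11.68 at 1 day to 10.49 to 10.98. The hemoglobin gene Hba-a2, which shares nearly all its sequence with another alpha globin gene, was at 6.91 and 6.34 at 1 day and 4.96 to 5.94 later.

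Probe sets gave another balance than genes. Counted per probe set and not per gene, 331 were higher at 1 day in both surgeries (0.735%) and 124 were lower (0.275%). Of the 331, 37 (11.2%) were the brightest of their gene, against 40.4% of all probe sets, while 165 were dimmer probe sets of a named gene and 124 (37.5%, against 20.3% of all) had no symbol. For 143 of the 165 the brightest probe set of the gene was within 1.5-fold in both surgeries. Over all 165 the brightest had median differences of 0.00 in PNY and 0.02 in SHAM. Sftpc is an example: its brightest probe set differed by 0.00, and its dim one was at 8.47 and 9.30 at 1 day, 7.46 and 7.55 at 6 hours, and 5.30 to 6.62 later. Actb is another, named like Sftpc after its values were seen, at 9.86 and 10.57 against 8.10 to 8.91 by the dim probe set and at 14.26 to 14.42 on all arrays by the bright one. The medians of the 331 were 6.29 and 6.30 at 1 day, 5.71 and 5.67 at 6 hours, and 5.05 to 5.61 later. The 6 hour arrays, with spike levels like those of 1 day, thus lay between. Among the 124 lower probe sets 72 (58.1%) were the brightest of their gene, and for 44 dimmer ones the brightest had median differences of -0.46 and -0.32, the same direction.

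**Figure D5:**
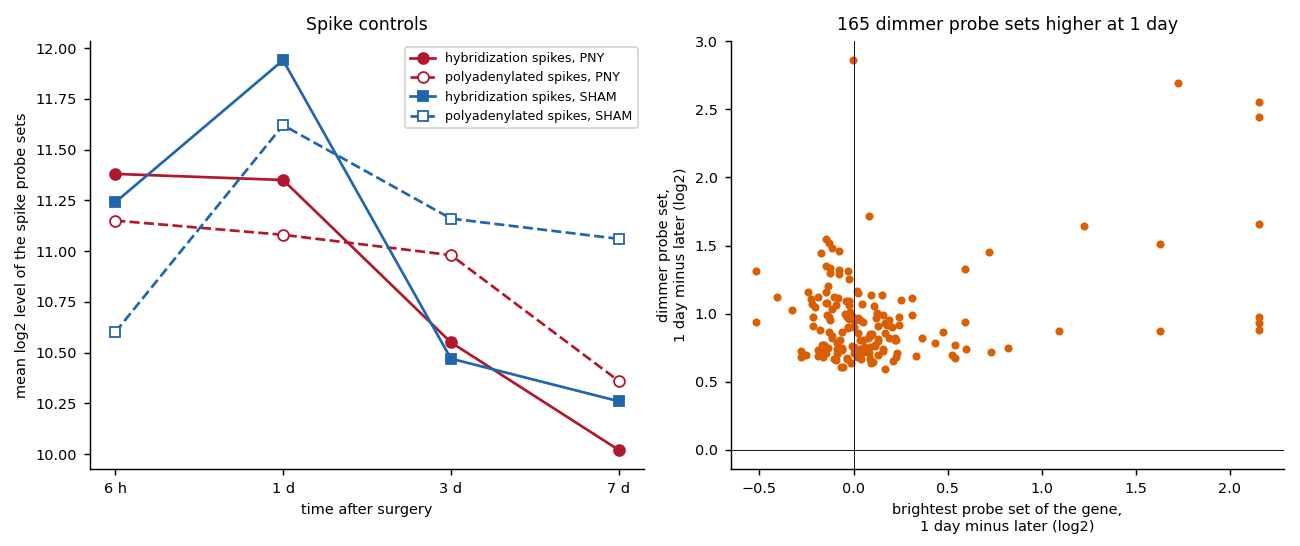
Left, mean log2 level of 18 hybridization spike probe sets (filled, solid) and 24 polyadenylated RNA spike probe sets (open, dashed) on each array against time after surgery, PNY as circles and SHAM as squares. Right, for the 165 dimmer probe sets higher at 1 day in both surgeries, their 1 day difference (y axis, log2) against that of the brightest probe set of the same gene (x axis, log2), most of which lay near 0.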

How the data were processed

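The authors deposited log2 values made from the scanned arrays by RMA (background correction, quantile normalization and summarization of probes). Base 2 was inferred from the spread of the numbers, since no header names it. Of 45101 probe sets 64 controls were left out, and 18193 genes were each represented by their brightest probe set (mean of 8 arrays); 34945 probe sets carry 1 symbol.

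Differences were fitted with limma 3.58.1 in R 4.3.3 (Benjamini-Hochberg adjusted p under 0.05 over 45037 probe sets), which was checked on simulated data. Levels within a surgery have no test, since there was 1 array at 1 day. The 3 and 7 day arrays are different times, so their spread holds the change between them, no p-value measures the spread between mice, and the number of arrays limits the precision.

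The genes named are the 12 largest differences in each direction among changed genes above the median level of 5.92, the 5 smallest p in each direction, up to 4 changed members of lists with 2 or more, the 2 largest differences each way of genes opposed between surgeries, and tissue markers. The 56 lists (1153 entries, 88 with no probe set here), the rule and the comparison were chosen with earlier results of these data known. Promoters are from RefSeq (GRCm38.p6). Alternatives were other centring, normalization, filter, probe set rule, later time, model and arrays left out. Markers Hbb-bt, Plin1, Cfd and Retnlg were not analysed here. Python 3.11.15 with pandas 2.3.3 and matplotlib 3.10.9 was used.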

Additional observations from a re-analysis of the deposited data

Results flagged for a closer look

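The hybridization spikes, which no comparison uses, were 1.32 log2 units higher at 1 day than at 3 and 7 days.

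Of 52 named genes looked at over their 4 later arrays, 3 had 1 array far from the others, Map3k12 (PNY at 7 days, 6.41), Marco (PNY at 3 days, 8.84) and Elovl6 (SHAM at 7 days, 6.59). Chance gives about 1 in 20 such cases.

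The change at 1 day differed between PNY and SHAM, by the interaction of surgery and time, for Rag1 (6.03), Dntt (4.11 and 2.98 by its 2 probe sets), Tbata (3.12 and 2.74), Ccr9 (2.98), Sh2d1a (2.72) and Prss16 (2.71), each an excess in PNY in log2 units. Opposite directions in the 2 surgeries, with an interaction that did not pass, were found for an immunoglobulin kappa variable gene (4.83), Jchain (3.77), Ighm (3.11) and Tnnc2 (-3.22).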

How the results depend on the processing

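The 109 genes were not tested singly within a surgery, and their number depends on the fold: at 2-fold 11 were higher and 8 lower. With 7 days alone as the later time 117 were lower. Requiring the 1 day array to lie outside the 6 hour array as well, an alternative chosen after seeing the data, left 20 higher and 40 lower. Leaving out 1 later array gave 32 to 56 higher genes, the 56 without the 7 day SHAM array, and 71 to 95 lower ones; without a 1 day array the rule cannot be applied.

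Calls by limma, 1 higher and 0 lower, depended on the model. Higher calls were 0 among probe sets above the median level, 0 with 3 days alone, 2 with surgery as a block, 14 with 8 arrays and 4 time levels, and 54 with a trended robust variance. Lower calls were 2 with 7 days alone, 5 with 8 arrays and 4 time levels, 2 with 6 arrays and 3 time levels, and 64 with a trended robust variance. Leaving out 1 array gave 0 to 47 higher calls (35 without the PNY and 47 without the SHAM array of 1 day, where the lone sample is assumed to vary like the others, and 0 without either 7 day array) and 0 to 4 lower ones. Against 7 days alone the 2 calls became 6 with surgery as a block, and the interaction calls 42 with a trended robust variance. The cause was not tested. No paired analysis by replicate number was possible because the labels give none.

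All 52 named genes kept their direction under each of 11 alternatives, which says little about robustness. Nearly all were chosen because the 1 day array lay beyond both later arrays of its surgery, in the same direction in both surgeries. Either later time alone could therefore not reverse them, and surgery as a block left the estimate unchanged. Sizes moved both ways with the mean of all probe sets of a gene. Rpf2 went from 1.313 to 0.267 and Saa1 from 1.725 to 2.207. Centring each array, a mild step since array medians already agreed, kept all 37 higher and 68 of the 72 lower genes. Fewer were kept when the later time was changed. With 3 days alone 25 of the 37 and 43 of the 72 met the rule again, and with 7 days alone 30 and 55 did.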
